A study of Homo sapiens with 9 samples.

Results

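RNA levels of 10 genes of the S100 family were followed across the lung cancer line LC-2/ad and a pair of ponatinib-resistant derivatives, PR1 and PR2. The genes were S100P, S100A2, S100A4, S100A6, S100A8, S100A9, S100A10, S100A11, S100A14 and S100A16. They were chosen by name from the family, with values measured in these same 9 libraries in view. The naming rule states no threshold, and all 3 comparisons count as used in the choice. The levels and fold changes of the 10 genes are therefore given as a description, without p-values. Each of the 10 had a row of its own among the 24069 rows of the table, which held 21 S100 rows in all.

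The parental group was LC-2/ad itself, a cell line from a human lung adenocarcinoma that carries a CCDC6-RET fusion. The labels do not say whether PR1 and PR2 are single clones. Both were grown in 200 nM ponatinib, a multi-kinase inhibitor that acts on RET among other kinases. The labels name no drug for the parental cells, so resistance and drug exposure cannot be told apart. Each group had 3 libraries, A, B and C, and the labels do not say whether a letter stands for a separate culture, so p-values measure the spread between these libraries only, which may be technical. All 10 lung epithelial markers examined reached 1 FPKM (fragments scaled to transcript length and to library size) in at least 3 libraries, which 1 group alone can supply. Their summed level, led by KRT7, was 5058 to 9001 FPKM per library. SFTPB averaged 79.6 FPKM in parental cells, 4.82 in PR1 and 0.0254 in PR2. Of the 10 markers 2 rose and 1 fell in PR1, and 1 rose and 3 fell in PR2 (limma, adjusted p under 0.05), beside 15.5% and 23.4% of all rows. The number of rows at 1 FPKM or more was 11263 to 11629 per library. Relative depth, read from the smallest steps of low values, was 0.756 to 0.980 of that of parental A in the other libraries, and absolute depth is unknown.

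S100 proteins are small, mostly dimeric calcium sensors with a pair of EF-hand loops. Calcium binding opens a surface through which they hold target proteins such as annexins, non-muscle myosin and ezrin, and several are also secreted and act on cell-surface receptors. In lung and other epithelia they mark differentiated, inflamed or migrating cells. S100A8 and S100A9 form calprotectin, the antimicrobial complex of myeloid cells and stressed epithelia, and S100A10, which has lost calcium binding, pairs with annexin A2.

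In the RefSeq gene table (GRCh38.p14), 9 of the 10 genes lie on chromosome 1 and S100P lies alone on chromosome 4. On chromosome 1 S100A10 and S100A11 are neighbours, 47 protein-coding genes of the epidermal differentiation complex separate them from S100A9, and the remaining S100 genes follow in the order S100A9, S100A12, S100A8, S100A7A, S100A7, S100A6, S100A5, S100A4, S100A3, S100A2, S100A16, S100A14, S100A13 and S100A1. The deposited values were made on another build (GRCh37 or hg19), so the table was used for gene order and names. In it S100A4 overlaps S100A5, S100A8 overlaps S100A7A, and S100A13 overlaps S100A1 and CHTOP, a gene of another family. Strand use in the counting is not given in the sources used here, so reads of such pairs may not be separated.

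The 250 bases before the start sites that RefSeq gives were read for all 10 genes, 14 windows in all. They were searched on both strands for a TATA box (TATAAA), an AP-1 motif (TGANTCA), a TEAD motif (CATTCC) and a C/EBP motif (TTGCNNAA). A TATA box stood in 5 of the 14 windows, which belong to the 4 genes S100P, S100A9, S100A8 and S100A4, and in 10.7% of 35116 windows of all genes. In S100P 22 bases lay between the match and the start site, in S100A9 23 and in S100A4 25. S100A8 has 3 start sites in the table. The windows of the second, shown here, and of the third overlap and hold the same match, 23 and 120 bases before the start site. That match is therefore counted 2 times among the 5 windows. An AP-1 motif was found in S100A2, a C/EBP motif in S100A11 and a TEAD motif in S100A16 (6.57%, 9.05% and 11.9% of all windows). A match is a description of the letters and not a binding site. The windows below are those of the 4 genes with a TATA box, which include the genes with the most unequal levels between the lines, and of S100A14, which differed between the lines and has no exact TATAAA match. Variants were not searched, and the S100A14 window holds the near match TATAAG. They are written 5′ to 3′ on the gene's strand in GRCh38.p14, and capitals mark the TATA box.
S100P, chr4:6693628-6693877, plus strand: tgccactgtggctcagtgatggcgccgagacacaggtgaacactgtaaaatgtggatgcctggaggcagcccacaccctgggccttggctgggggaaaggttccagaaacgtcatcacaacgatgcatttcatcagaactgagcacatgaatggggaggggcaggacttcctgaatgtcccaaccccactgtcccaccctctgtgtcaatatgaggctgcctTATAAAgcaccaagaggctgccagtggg
S100A9, chr1:153357604-153357853, plus strand: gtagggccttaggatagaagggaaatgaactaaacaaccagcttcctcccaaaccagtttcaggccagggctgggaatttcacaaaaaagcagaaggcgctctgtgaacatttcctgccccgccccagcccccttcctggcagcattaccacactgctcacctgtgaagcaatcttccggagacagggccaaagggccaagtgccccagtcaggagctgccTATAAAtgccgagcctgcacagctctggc
S100A8, chr1:153391074-153391323, minus strand: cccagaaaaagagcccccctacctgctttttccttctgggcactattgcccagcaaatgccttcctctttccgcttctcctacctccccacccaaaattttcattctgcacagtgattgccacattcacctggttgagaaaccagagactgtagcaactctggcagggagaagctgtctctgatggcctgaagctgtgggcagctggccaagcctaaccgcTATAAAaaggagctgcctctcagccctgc
S100A4, chr1:153545807-153546056, minus strand: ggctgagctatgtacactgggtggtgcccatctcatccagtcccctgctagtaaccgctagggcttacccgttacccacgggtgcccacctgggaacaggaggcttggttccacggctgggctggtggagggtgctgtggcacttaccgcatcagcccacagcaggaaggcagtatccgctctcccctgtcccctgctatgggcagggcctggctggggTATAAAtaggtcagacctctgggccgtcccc
S100A14, chr1:153616326-153616575, minus strand: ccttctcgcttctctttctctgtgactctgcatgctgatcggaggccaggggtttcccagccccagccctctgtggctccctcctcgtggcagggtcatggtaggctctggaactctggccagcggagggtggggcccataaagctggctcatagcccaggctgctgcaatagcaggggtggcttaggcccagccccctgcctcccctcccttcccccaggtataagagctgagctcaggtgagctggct

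The summed level of the 10 genes was lower in each derivative, and its make-up differed. It was 7947, 10961 and 7758 FPKM in the parental libraries A, B and C, 7910, 7553 and 5846 in PR1 and 3933, 5360 and 4680 in PR2. The PR2 libraries all lay below the parental and PR1 libraries, while PR1 overlapped parental. In bulk RNA fewer cells that express a gene and less RNA per cell cannot be told apart. As a share of all FPKM in the column the 10 genes took 1.35% ± 0.243 (SD, n = 3) in the parental group, 1.11% ± 0.0787 in PR1 and 0.788% ± 0.102 in PR2. S100A6 was the highest in every group and made up 46.2% ± 2.90 of the sum in parental cells, 53.8% ± 3.45 in PR1 and 55.1% ± 3.44 in PR2. S100A9 made up 20.1% ± 5.76 in parental cells but 1.38% ± 0.896 in PR1 and 0.783% ± 0.691 in PR2.

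**Figure D1:**
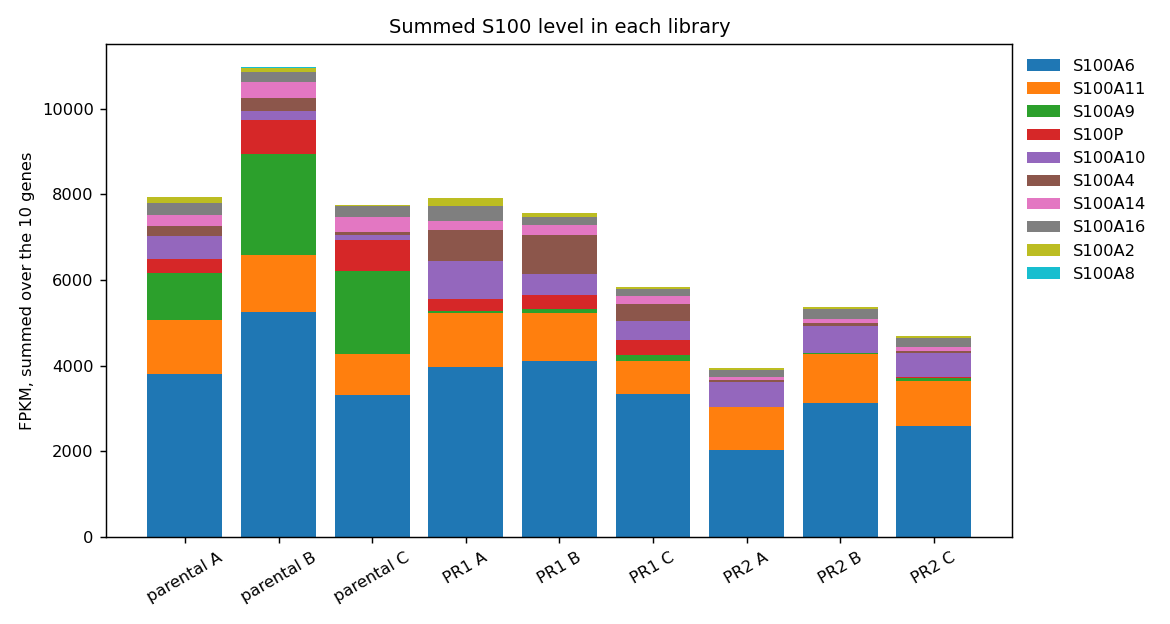
Summed FPKM of the 10 S100 genes in each of the 9 libraries, with 1 stacked bar per library and 1 colour per gene (the y axis starts at 0). S100A6 forms the base of every bar, and the S100A9 and S100P segments seen in parental cells are thin or absent in PR2.

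FPKM is scaled to transcript length, so levels of different genes can be ranked. In parental cells the order by mean FPKM was S100A6, S100A9, S100A11, S100P, S100A14, S100A10, S100A16, S100A4, S100A2 and S100A8. The library ranges of S100A9 and S100A11 overlapped there, as did those of every neighbouring pair from S100P down to S100A2. In PR1 S100A11, S100A4 and S100A10 followed S100A6, with overlapping ranges, and S100A9 took the ninth place. In PR2 the order was S100A6, S100A11, S100A10, S100A16, S100A14, S100A4, S100A9, S100A2, S100P and S100A8, and the only neighbours to overlap were S100A14 with S100A4, S100A4 with S100A9 and S100A9 with S100A2.

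**Figure D2:**
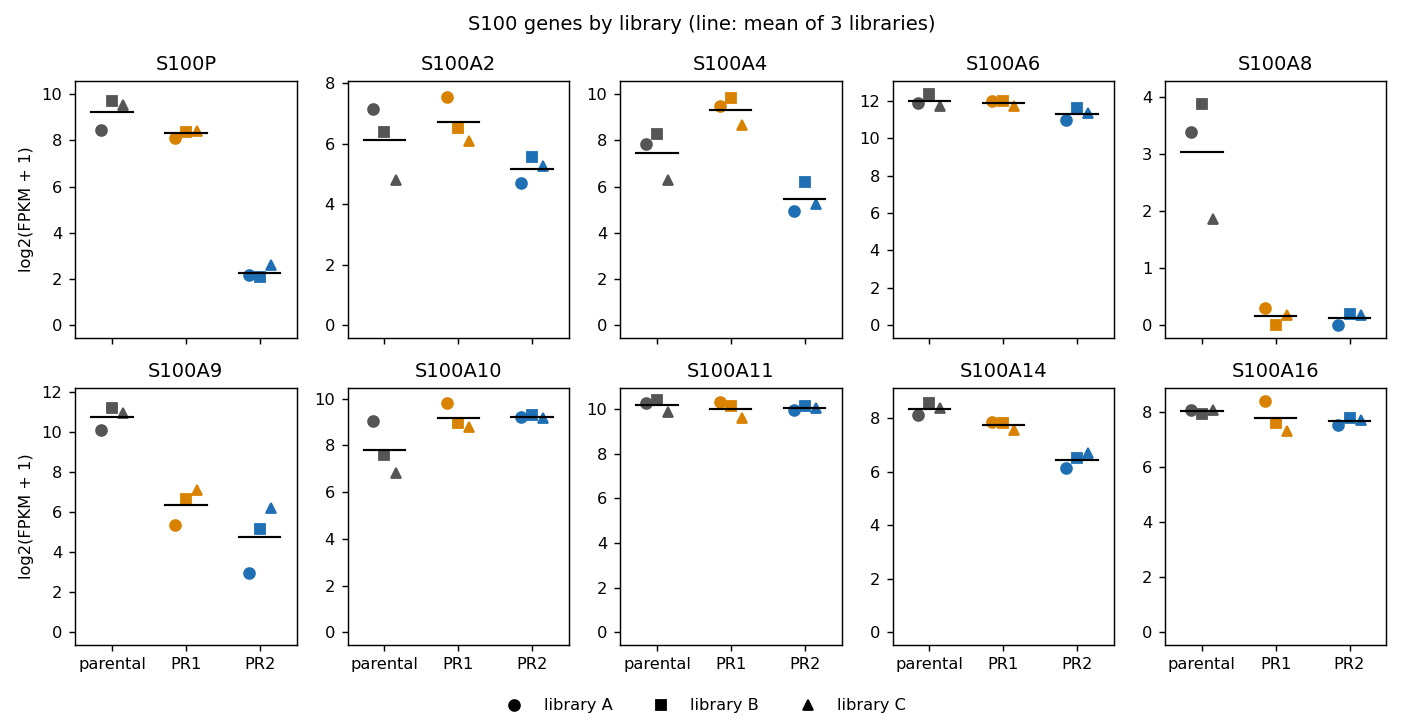
Level of each of the 10 genes as log2(FPKM + 1) on the y axis, by group on the x axis, with 1 marker per library (circle A, square B, triangle C) and a line at the mean of 3 libraries. S100P, S100A4 and S100A14 sit lower in all PR2 libraries than in any parental or PR1 library, and S100A11 sits at about the same level in all groups.

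S100P encodes a calcium sensor that binds ezrin and is secreted by many carcinomas. It stood at 343, 816 and 729 FPKM in parental A, B and C, at 274, 328 and 340 in PR1 and at 3.46, 3.22 and 5.06 in PR2. No library of one group overlapped another group, in the order parental, PR1, PR2. The mean was 2.00-fold lower in PR1 than in parental cells and 161-fold lower in PR2, or 80.3-fold lower in PR2 than in PR1. On the log2(FPKM + 1) scale, which understates changes of low values, the difference from parental cells was −0.91 ± 0.30 (SE) in PR1 and −6.93 ± 0.30 in PR2. Within letters the PR2 difference from parental cells was −6.27, −7.60 and −6.91. Genes of its partners were read beside it: EZR, which encodes ezrin, was at 310, 265 and 245 FPKM on average in parental cells, PR1 and PR2, and S100PBP, which encodes the S100P-binding protein, at 3.97, 4.35 and 4.73, and neither passed the test in any comparison (smallest limma adjusted p = 0.24 for EZR and 0.25 for S100PBP).

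The rows most like S100P over the 9 libraries, by Pearson correlation of log2(FPKM + 1) among 6878 rows with a group mean of 10 FPKM or more, were SPRY4 (0.99), USF2 (0.99), SDC1 (0.99), SOX2 (0.99) and CPVL (0.98). SPRY4 encodes a feedback inhibitor of receptor tyrosine kinase signalling, SOX2 a lineage transcription factor and SDC1 the proteoglycan syndecan-1. Their means were lower in PR2 than in both other groups, from 13.1 and 8.14 to 0.728 FPKM for SPRY4 and from 40.1 and 31.1 to 2.13 for SOX2. The 9 points form 3 groups, so such a correlation mostly follows the 3 group means, and it is given with no p.

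S100A9, a calprotectin subunit, stood at 1093, 2344 and 1944 FPKM in parental A, B and C, which placed it second to S100A6 among the 10 genes by mean. It was at 40.0, 100 and 134 FPKM in PR1 and at 6.82, 34.5 and 71.8 in PR2. All libraries of both derivatives lay below all parental libraries, and PR1 and PR2 overlapped. The mean was 19.6-fold lower in PR1 and 47.6-fold lower in PR2 than in parental cells, with log2 differences of −4.37 ± 0.72 and −5.97 ± 0.72. Within each letter PR2 was also below PR1, with log2 differences of −2.39, −1.52 and −0.89 in A, B and C, and in each group the A library was the lowest.

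S100A8, its calprotectin partner, was much scarcer. Its parental libraries held 9.41, 13.7 and 2.63 FPKM, those of PR1 0.231, 0 and 0.129, and those of PR2 0, 0.142 and 0.136. It entered the fit only through its parental level, since no library of PR1 or PR2 reached 1 FPKM, so a difference from parental cells was built into its being tested. Since a listed 0 may stand for an estimate that failed, no ratio of means is given, and its fitted log2 differences from parental cells (−2.88 in PR1 and −2.91 in PR2) rest on the pseudocount: with 0.1 FPKM in place of 1 they were −5.18 and −5.31. In parental A, B and C S100A9 exceeded S100A8 by 116, 171 and 740 times. No such ratio is given for the derivatives, where S100A8 did not exceed 0.231 FPKM.

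Calprotectin genes are known from myeloid cells, so blood cell markers were read beside them. Of 12 such markers 1 reached 1 FPKM in at least 3 libraries. This was CD14, a lipopolysaccharide co-receptor, at 3.43, 9.0 and 6.07 FPKM in parental cells, 0.985 to 1.59 in PR1 and 0.666 to 1.01 in PR2, and it fell in both derivatives (log2 fold change −1.55 and −1.86, limma adjusted p = 0.0033 and 0.00071). The leukocyte gene PTPRC did not exceed 0.0196 FPKM, MPO and ELANE of neutrophil granules were listed at 0 in all libraries, and S100A12, the third myeloid S100 gene, did not exceed 0.426. The summed level of the list was 3.74 to 9.30 FPKM in parental cells, 1.23 to 1.79 in PR1 and 0.890 to 1.61 in PR2.

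S100A4, which binds non-muscle myosin and is known for its link to cell motility and metastasis, was higher than in parental cells in PR1 and lower in PR2. It stood at 229, 305 and 76.3 FPKM in parental A, B and C, at 710, 898 and 399 in PR1 and at 29.5, 71.6 and 37.0 in PR2. Every PR1 library was above and every PR2 library below every parental library. The mean was 3.29-fold higher in PR1 and 4.42-fold lower in PR2 than in parental cells, and 14.5-fold lower in PR2 than in PR1, with log2 differences of 1.85 ± 0.51, −2.01 ± 0.51 and −3.86 ± 0.51. Within letters the PR2 difference from PR1 was −4.54, −3.63 and −3.40. MYH9, which encodes the non-muscle myosin heavy chain that S100A4 binds, averaged 164 ± 37.3 FPKM (SD, n = 3) in the parental group, 219 ± 19.8 in PR1 and 279 ± 29.8 in PR2, and rose in PR2 (log2 fold change 0.78 ± 0.19, limma adjusted p = 0.013).

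S100A14, a member found mainly in epithelia, was at 277, 382 and 336 FPKM in parental cells, 231, 224 and 190 in PR1 and 69.9, 90.5 and 103 in PR2. The groups were fully separate, in the order parental, PR1, PR2. The mean was 1.54-fold lower in PR1 and 3.78-fold lower in PR2 than in parental cells (log2 −0.62 ± 0.19 and −1.91 ± 0.19). Its neighbour S100A16, a widely expressed member, was at 269, 239 and 268 FPKM in parental cells, 336, 192 and 159 in PR1 and 182, 217 and 206 in PR2. The PR2 libraries of S100A16 were all below the parental ones, with a log2 difference of −0.36 ± 0.25, and those of PR1 spanned both.

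S100A10 was the member whose level was higher in both derivatives. It was at 526, 193 and 110 FPKM in parental A, B and C, 898, 493 and 445 in PR1 and 589, 632 and 573 in PR2. Both derivatives were higher than parental cells within every letter, although parental A lay within the range of PR1. The mean was 2.21-fold higher in PR1 and 2.16-fold higher in PR2, with log2 differences of 1.37 ± 0.48 and 1.41 ± 0.48, and 0.04 ± 0.48 between the derivatives. ANXA2, which encodes its partner annexin A2, was at 1231, 822 and 716 FPKM in parental cells, 1786, 926 and 937 in PR1 and 1414, 1370 and 1387 in PR2, and did not pass the test (log2 0.36 ± 0.28 for PR1 and 0.63 ± 0.28 for PR2, with limma adjusted p = 0.43 and 0.14). The ratio of ANXA2 to S100A10 in FPKM was 2.34, 4.27 and 6.49 in parental A, B and C and 1.88 to 2.42 in the 6 derivative libraries, so parental A was close to the derivatives and the other parental libraries were above them.

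S100A2, a nuclear S100 protein of basal and squamous epithelia that p63 and p53 induce, varied widely between libraries of a group. It was at 141, 82.6 and 27.2 FPKM in parental A, B and C, 187, 90.3 and 67.1 in PR1 and 24.9, 46.1 and 37.2 in PR2. PR2 lay below PR1 in all libraries, while parental cells overlapped both. The log2 difference was 0.60 ± 0.55 in PR1 and −0.95 ± 0.55 in PR2 against parental cells and −1.55 ± 0.55 between PR2 and PR1. The PR2 difference from parental cells was −2.46, −0.83 and 0.44 in letters A, B and C, so its sign was not shared. TP63, which encodes p63, averaged 3.70 ± 1.5 FPKM (SD, n = 3) in the parental group, 6.72 ± 1.35 in PR1 and 2.58 ± 1.46 in PR2, and was lower in PR2 than in PR1 (log2 −1.19 ± 0.32, limma adjusted p = 0.028).

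Of the squamous markers with a row, all but TP63 stood in the same order as S100A2 and S100A10 in the parental libraries. In parental A, B and C KRT13 was at 162, 117 and 31.6 FPKM and KRT4 at 94.7, 32.2 and 9.70. KRT6A was at 53.8, 14.4 and 5.75 and the cornified envelope gene IVL at 5.34, 0.999 and 0.418. TP63 (5.43, 2.75 and 2.92 FPKM) and the cornified envelope gene SPRR2D (0.924, 0.540 and 2.33) did not follow that order. Of 7 squamous markers with a row, 4 reached 1 FPKM in at least 3 libraries, and their summed level was 50.7 to 324 FPKM in parental cells, 123 to 218 in PR1 and 29.1 to 49.9 in PR2. Their part in the S100A2 and S100A10 levels was not tested. The rows most like S100A2 by the measure used for S100P were C14orf2 (0.93), SARNP (0.92), CORO1A (0.92), PSME2 (0.89) and PTMA (0.89), over 9 libraries that share the same 3 groups.

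S100A6 was first in every group, and S100A11 followed S100A9 in parental cells and came next after S100A6 in PR1 and PR2. S100A6, which binds the CacyBP/SIP protein, was at 3806, 5247 and 3324 FPKM in parental cells, 3969, 4101 and 3334 in PR1 and 2027, 3131 and 2584 in PR2. PR2 lay below both other groups, with log2 differences of −0.67 ± 0.23 and −0.58 ± 0.23, and PR1 overlapped parental cells (−0.10 ± 0.23). After quantile normalization, which sets all libraries to 1 distribution, the PR2 difference from parental cells was −0.27. S100A11, which acts in plasma membrane repair with annexins, was at 1252, 1340 and 940 FPKM in parental cells, 1265, 1126 and 779 in PR1 and 1000, 1134 and 1063 in PR2. All groups overlapped for S100A11, and the log2 differences were −0.17 ± 0.22, −0.13 ± 0.22 and 0.04 ± 0.22 for PR1 and PR2 against parental cells and PR2 against PR1.

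**Figure D3:**
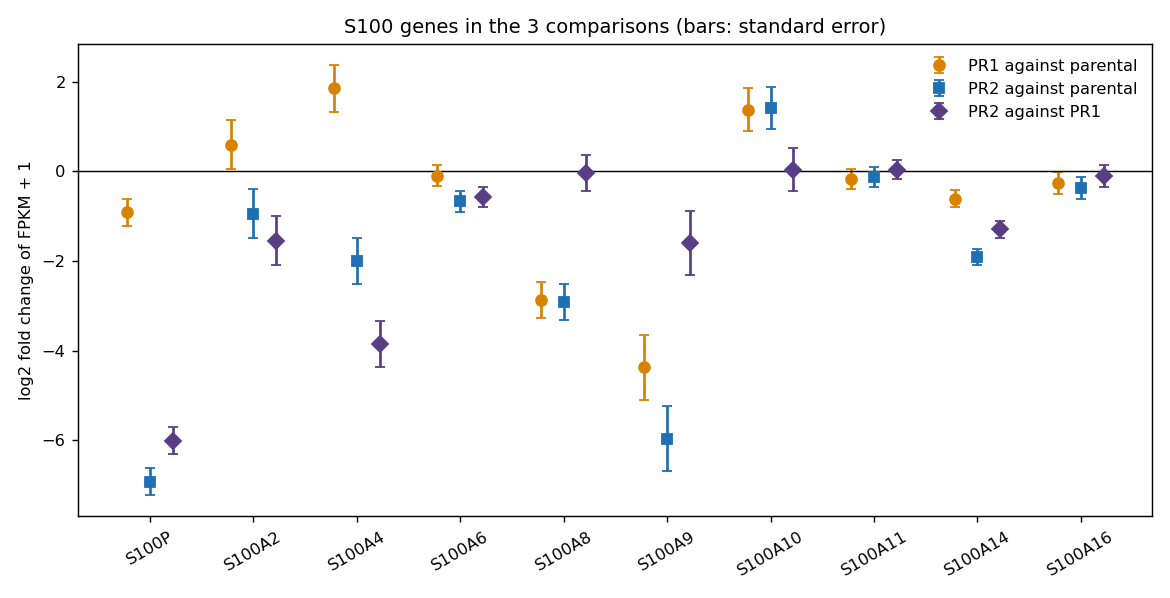
Log2 fold change of FPKM + 1 (y axis) of the 10 genes in the 3 comparisons (circle PR1 against parental, square PR2 against parental, diamond PR2 against PR1), with bars of 1 standard error. S100P has the lowest values in PR2 and S100A4 lies on opposite sides of 0 in PR1 and PR2.

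The 3 comparisons were fitted over all rows with limma, at an adjusted p under 0.05. All 10 genes passed the filter on low values, S100A8 only through its parental level. In PR1 against parental cells 3 of the 10 genes passed, S100A4 higher and S100A8 and S100A9 lower, against 15.5% of all 12011 rows tested (7.56% higher, 7.98% lower). In PR2 against parental cells 5 passed, all lower, S100P, S100A4, S100A8, S100A9 and S100A14, against 23.4% of all rows (9.83% lower). Between PR2 and PR1 3 passed, S100P, S100A4 and S100A14, all lower in PR2, against 19.9% of all rows (8.92% lower). The median log2 difference of the 10 genes was −0.21, −1.43 and −0.94 in the 3 comparisons, and that of all rows tested was 0.05, 0.03 and 0.004. Since these contrasts were known when the genes were chosen, nothing is read from the counts or from how they move below. The comparisons share libraries pairwise, so they are not independent.

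The counts moved with the fit and with single libraries. With the letter as a replicate block, 6 genes passed in PR1, S100P, S100A10 and S100A14 being added, and 6 between PR2 and PR1, with S100A2, S100A6 and S100A9 added. That fit passed 25.7% and 31.5% of all rows in these comparisons. Without parental A the same S100P, S100A10 and S100A14 joined the 3 in PR1, a count of 6, where 1895 of 12011 rows passed. The S100A4 call in PR1 was lost without parental C, PR1 A or PR1 B and with no filter, which left 2 in each case. The S100A4 call in PR2 was lost without parental A, parental B, PR2 A or PR2 C. Without the 3 A libraries, an alternative added after the data were seen, 5 genes passed in PR1, S100P, S100A8, S100A9, S100A10 and S100A14, and 5 in PR2, where S100A10 (log2 2.04) replaced S100A4. In that fit 2413 of 12011 rows passed in PR1 and 3389 in PR2.

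The S100 genes outside the 10 were mostly silent. S100A7, S100A7A, S100A7L2, S100B, S100G and S100Z were listed at 0 in all 9 libraries, and S100A1 and S100A12 did not exceed 0.670 and 0.426 FPKM. S100A3, S100A5 and S100A13 were tested, and none changed in PR1 (0 of 3 by limma, 0 at an unadjusted p under 0.05). In PR2 S100A5 and S100A13 fell, 2 of 3, and both were also lower than in PR1. S100A5 stood at 8.42, 5.62 and 5.48 FPKM in parental cells, 11.5, 6.86 and 6.95 in PR1 and 1.19, 1.86 and 1.91 in PR2 (log2 −1.49 ± 0.23 against parental cells and −1.81 ± 0.23 against PR1, limma adjusted p = 0.0012 and 0.00058). S100A5 overlaps S100A4, and its reads may in part be shared with it. S100A13, which takes part in the release of growth factors that lack a signal peptide, was at 239 ± 49.99, 230 ± 37.8 and 139 ± 32.3 FPKM in parental cells, PR1 and PR2 (SD, n = 3), and its fall in PR2 (log2 −0.78 ± 0.23, limma adjusted p = 0.034) was lost under several alternatives, such as without PR2 A (limma adjusted p = 0.093). S100A3 passed in no comparison (log2 0.43 ± 0.48 for PR1 and 0.34 ± 0.48 for PR2, with limma adjusted p = 0.60 and 0.65).

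From S100A6 to S100A13 the tested S100 genes of chromosome 1 were all lower on average in PR2 than in PR1, by unequal amounts. For S100A3 and S100A16 this rested on the A libraries (−1.14 and −0.88), since both genes were higher in PR2 within letters B and C. Their mean differences (−0.09 ± 0.48 and −0.11 ± 0.25) were smaller than their standard errors. Between PR2 and PR1 the log2 difference along the block was −0.58 for S100A6, −1.81 for S100A5, −3.86 for S100A4, −0.09 for S100A3, −1.55 for S100A2, −0.11 for S100A16, −1.30 for S100A14 and −0.73 for S100A13. Of 19 genes of other families in or beside the S100 blocks, 15 had a row of their own and 7 were tested, and none passed in any comparison (limma, 0 of 7 in each, and 0 at an unadjusted p under 0.05), with medians of −0.05, −0.03 and 0.04. CHTOP, one of these, was at 37.0, 41.3 and 34.4 FPKM on average in parental cells, PR1 and PR2, and its reads may in part be shared with S100A13. Of the 7 S100-fused epidermal genes between the blocks TCHH alone was tested. It was at 0.489 ± 0.222, 0.277 ± 0.0686 and 2.56 ± 0.360 FPKM in parental cells, PR1 and PR2. It reached 1 FPKM only in the PR2 libraries, so a higher PR2 level was built into its being tested, and its fitted difference from parental cells (log2 1.26 ± 0.15) is given as a description. Of 13 cornified envelope genes SPRR2D alone was tested, and it passed in no comparison (smallest limma adjusted p = 0.066), although with the letter as a replicate block it was higher in PR2 than in PR1.

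**Figure D4:**
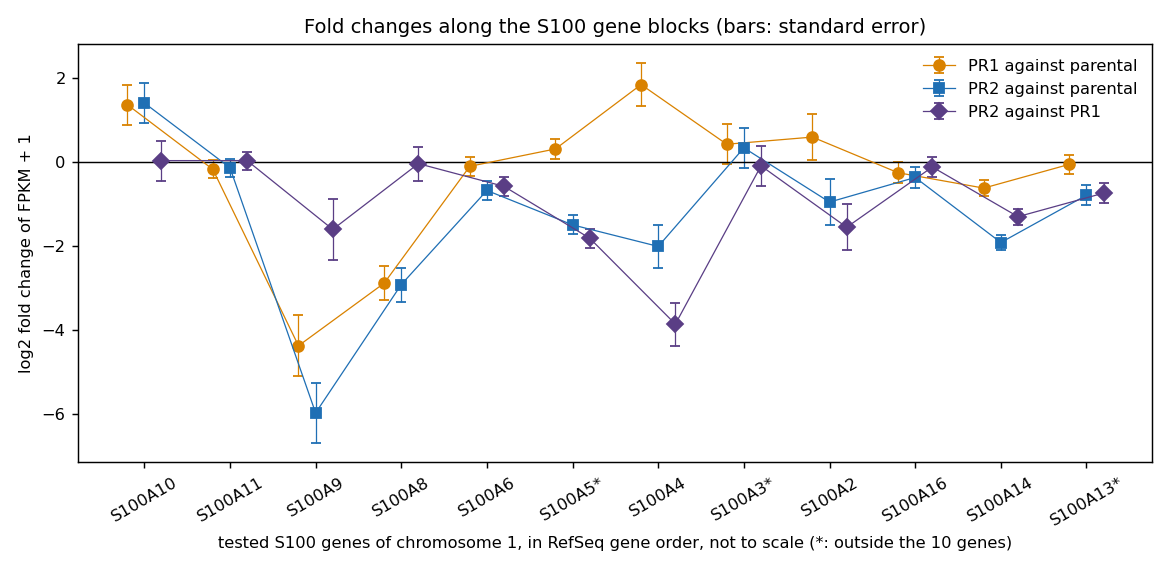
Log2 fold change of FPKM + 1 (y axis, bars of 1 standard error) of the 12 tested S100 genes of chromosome 1 in their RefSeq order (x axis, not to scale), with asterisks at the 3 genes outside the 10. The lines only join the points of a comparison. S100A9 and S100A8 are low in both derivatives, and S100A4 stands out between S100A5 and S100A3 in PR2 against PR1.

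Partner genes of S100 proteins were read from whole lists made by function. Annexins bind membranes in calcium and hold S100 dimers. Of 9 annexins tested, 3 rose and 1 fell in PR1, 1 rose in PR2, and between the derivatives 2 were higher and 1 lower in PR2. All rows passed in 15.5%, 23.4% and 19.9% of cases in these 3 comparisons, the shares against which this and the following list counts stand. With the replicate block 5 annexins passed between the derivatives, beside 31.5% of all rows. ANXA3 rose in both derivatives, from 20.2 ± 6.996 FPKM (SD, n = 3) to 73.4 ± 25.9 (PR1) and 151 ± 20.4 (PR2) (log2 1.82 ± 0.29 and 2.89 ± 0.29, limma adjusted p = 0.0027 and 0.00011). ANXA5 rose in PR1 (log2 1.32 ± 0.25, limma adjusted p = 0.0063). Its PR2 libraries also lay above all parental ones, but the difference missed the threshold (log2 0.70 ± 0.25, limma adjusted p = 0.067). With the replicate block the limma adjusted p of ANXA5 in PR2 was 0.0065, but that fit treats same-letter libraries as matched. For letter C the PR2 and parental deviations correlated at only 0.014, so no call is taken from that fit. The fall of ANXA6 in PR1, from 1.92 ± 0.701 to 0.585 ± 0.255 FPKM, depended on single libraries and was lost without parental A or B or any PR1 library (adjusted p by limma up to 0.15). It was also lost with no filter (limma adjusted p = 0.074). The median annexin difference was 0.25 in PR1 and 0.33 in PR2.

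Of 18 intracellular partners, all tested, 4 rose and 1 fell in PR1 and 6 rose in PR2. AHNAK, the large scaffold held by the S100A10 and annexin A2 complex, rose from 12.3 ± 4.61 FPKM to 38.3 ± 5.84 (PR1) and 47.4 ± 17.7 (PR2) (log2 1.61 ± 0.29 and 1.86 ± 0.29, limma adjusted p = 0.0053 and 0.0015). MYL9, a myosin regulatory light chain gene, was at 17.1, 4.36 and 1.84 FPKM in parental A, B and C, 4.04, 0.652 and 0.855 in PR1 and 43.1, 28.8 and 34.6 in PR2. It rose in PR2 (log2 2.47 ± 0.61, limma adjusted p = 0.015), a call lost without parental B or parental C (limma adjusted p = 0.060 and 0.053). TPM1, a tropomyosin gene, rose in both (log2 0.67 ± 0.15 and 1.71 ± 0.15, limma adjusted p = 0.014 and 4.5e-05), and its call in PR1 was lost without parental B. MYH14, another non-muscle myosin heavy chain gene, fell in PR1 (log2 −0.81 ± 0.16, limma adjusted p = 0.0087). The medians were 0.12 in PR1 and 0.24 in PR2.

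Receptors for secreted S100 proteins and the plasmin system, whose activators work at the surface where S100A10 docks plasminogen, held 12 tested genes of 18. In PR1 3 rose, and in PR2 4 rose and 3 fell. MCAM, an adhesion receptor of S100A8 and S100A9, rose from 4.83 ± 3.43 to 22.7 ± 5.64 FPKM in PR1 and 88.0 ± 19.8 in PR2 (log2 2.14 ± 0.35 and 4.06 ± 0.35, limma adjusted p = 0.0031 and 4.3e-05). GPC1, a cell-surface proteoglycan gene, was at 20.4, 14.1 and 13.8 FPKM in parental cells and 65.3, 54.1 and 46.5 in PR2, with no overlap (log2 1.73 ± 0.25, limma adjusted p = 0.00083). PLAUR, the urokinase receptor gene, rose in both (log2 0.93 ± 0.23 and 1.70 ± 0.23, limma adjusted p = 0.024 and 0.00068), although its call in PR1 was lost when parental B, parental C, PR1 A or PR1 C was left out (adjusted p by limma up to 0.090). PLAT, which encodes tissue plasminogen activator, fell from 158 ± 43.2 to 30.7 ± 22.6 FPKM in PR2 (log2 −2.78 ± 0.67, limma adjusted p = 0.014), a call lost without parental B (limma adjusted p = 0.057). SDC1 fell there too (log2 −1.70 ± 0.15, limma adjusted p = 4.3e-05). AGER, the gene of the S100 receptor RAGE, was listed at 0 in all 9 libraries, and the lipopolysaccharide receptor gene TLR4 did not exceed 0.603 FPKM.

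**Figure D5:**
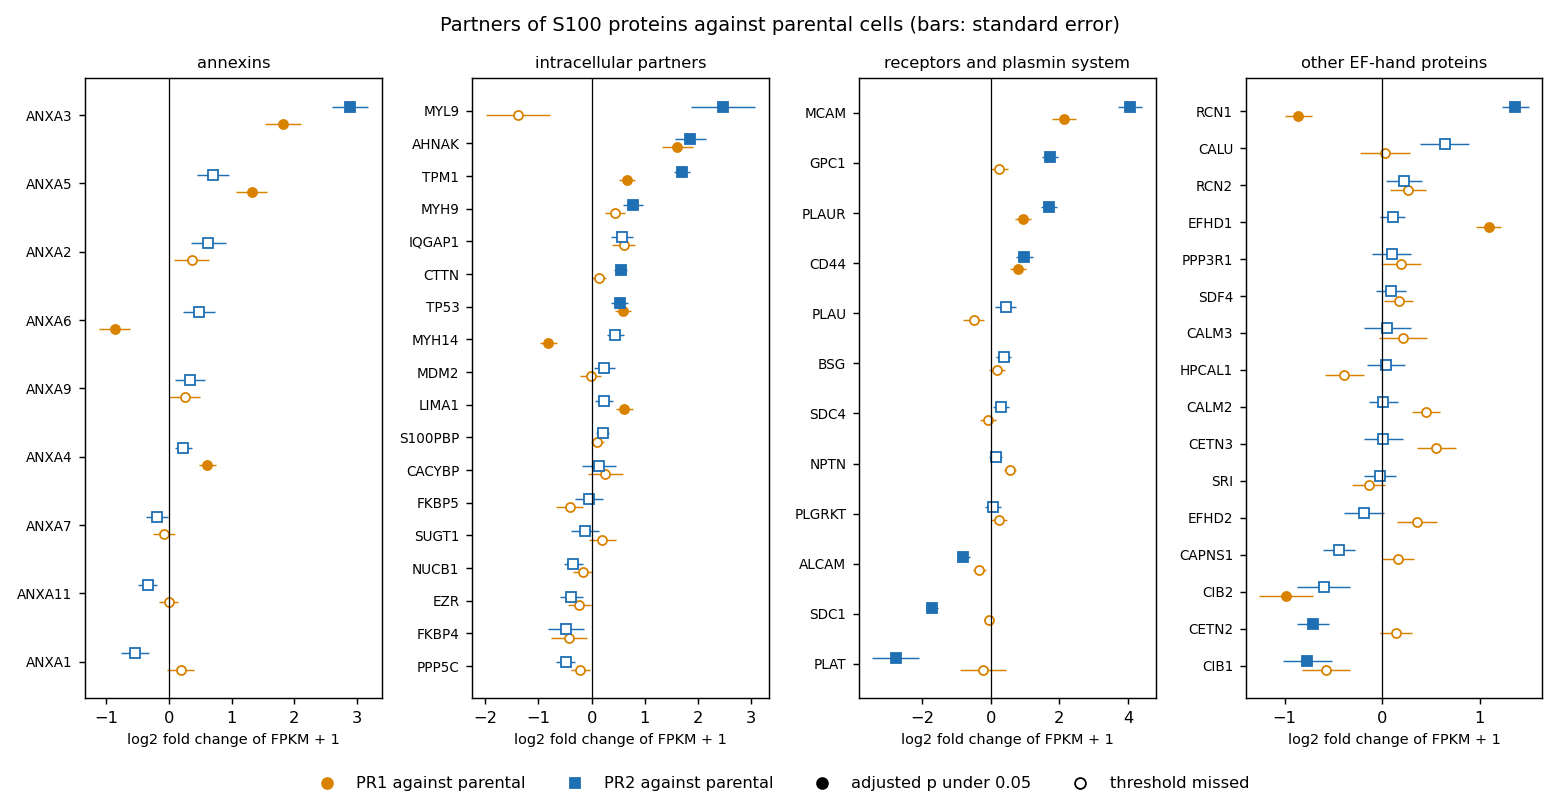
Log2 fold change of FPKM + 1 (x axis, bars of 1 standard error) of the tested genes (y axis) of 4 partner lists against parental cells, with circles for PR1 and squares for PR2. Filled markers passed an adjusted p of 0.05. ANXA3, AHNAK and MCAM are to the right of 0 in both derivatives, and most of the other EF-hand genes are open markers near 0.

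Of 16 tested EF-hand calcium protein genes of other families, 1 rose and 2 fell in PR1 and 1 rose and 2 fell in PR2, beside 15.5% and 23.4% of all rows. With the replicate block 5 passed in PR1 and 7 between PR2 and PR1, where 4 passed without it (25.7% and 31.5% of all rows). RCN1, a calcium-binding protein gene of the secretory pathway, fell from 74.6 ± 7.01 to 40.5 ± 1.99 FPKM in PR1 and rose to 194 ± 14.7 in PR2 (log2 −0.86 ± 0.14 and 1.37 ± 0.14, limma adjusted p = 0.0027 and 0.00011). CETN2, which encodes a centrin of the centrosome, fell in PR2 (log2 −0.71 ± 0.16, limma adjusted p = 0.012). The falls of CIB2 in PR1 (log2 −0.98 ± 0.28, limma adjusted p = 0.038) and of CIB1 in PR2 (log2 −0.76 ± 0.25, limma adjusted p = 0.048), both calcium and integrin binding protein genes, were each lost when any of several single libraries was left out. Both were also lost with no filter (limma adjusted p = 0.072 and 0.073). The CIB1 call was lost too with the filter at 5 FPKM and with quantile normalization. EFHD1, a mitochondrial EF-hand gene, averaged 0.0866 ± 0.0673 FPKM in the parental group and 1.32 ± 0.279 in PR1. It reached 1 FPKM only in the PR1 libraries, so a higher PR1 level was built into its being tested.

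Of 23 tested transcription factor genes described as acting on S100 genes, none passed in PR1 by limma (6 had an unadjusted p under 0.05), and 3 rose and 4 fell in PR2. Among the 3, NFATC2 reached 1 FPKM only in the PR2 libraries and parental A, so a higher PR2 level was in part built into its being tested. With the replicate block 5 passed in PR1, beside 25.7% of all rows, among them FOSL1 (log2 1.57, limma adjusted p = 0.0014). SPDEF, an epithelial ETS factor gene, fell from 26.9 ± 10.1 to 1.54 ± 0.526 FPKM in PR2 and was at 40.5 ± 12.5 in PR1 (log2 −3.42 ± 0.29 against parental cells and −4.01 ± 0.29 against PR1, limma adjusted p = 3.7e-05 and 2.3e-05). CEBPA, a myeloid and epithelial differentiation factor gene, fell from 9.38 ± 2.26 to 1.79 ± 0.405 FPKM (log2 −1.88 ± 0.19, limma adjusted p = 0.00012). FOSL1, an AP-1 subunit gene, rose in PR2 (log2 1.88 ± 0.53, limma adjusted p = 0.027), a call that parental B, parental C, PR2 A and PR2 C each decided (adjusted p by limma up to 0.11 without one of them). That call was also lost with no filter (limma adjusted p = 0.060). SMAD4, a TGF-beta signalling gene, rose in PR2 (log2 0.58 ± 0.17, limma adjusted p = 0.036), a call lost when PR2 B, PR2 C or parental B was left out. The SMAD4 call was also lost with no filter (limma adjusted p = 0.061) and with quantile normalization (0.057). It was narrowly lost with only the 2 groups compared (0.0502) and without the 3 A libraries (0.052).

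The endothelial and neural crest lists stood near the floor, as did the fibroblast list apart from COL1A1 and PDGFRA. The fibroblast list had 2 of 8 markers tested, PDGFRA, which reached 1 FPKM only in the parental libraries (1.10, 1.53 and 1.82), and COL1A1, at up to 10.04 FPKM, and the list's summed level was 5.49 to 9.51 FPKM in parental cells, 6.22 to 8.98 in PR1 and 9.97 to 11.3 in PR2. None of 4 endothelial and 5 melanocyte and Schwann cell markers reached 1 FPKM in at least 3 libraries, with PECAM1 at up to 1.13 and PMEL at up to 1.197 FPKM. These lists share no gene with the 10.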

How the data were processed

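Per the labels' protocols RNA came from an RNeasy kit and sequencing used TruSEQ RNA libraries. Per the submitters' processing notes the authors used TopHat2 2.0.14, Cufflinks 2.2.1 and Cuffdiff 2.2.1 with the builds GRCh37 and hg19. The deposited values, 1 column per library, were taken as FPKM from the tools named and from their range, since the header names no unit. Of the rows, 704 combine several genes and hold 7 list entries, which were left out, and 5378 are 0 in all libraries.

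Values were analysed as log2(FPKM + 1) in R 4.3.3 with limma 3.58.1 (intensity trend, 1 mean per group, all 9 libraries) on 12011 rows with 1 FPKM in 3 or more libraries. Tests were two-sided, with Benjamini-Hochberg adjustment over all rows tested, and the scripts were tested on simulated data. Errors are SDs over 3 libraries for FPKM and standard errors for log2 differences.

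The 10 genes and the 15 gene lists were chosen with earlier results of these data known. Each list's genes past the threshold were named by size, up to 2 that rose and 2 that fell in a comparison (those between PR2 and PR1 in the closing section), together with all S100 genes. Outside that rule, and after their values were seen, partners of single members (EZR, S100PBP, MYH9, ANXA2), TP63, CHTOP, SPRR2D, IVL, AGER, TLR4 and single markers were named. Some listed genes are not reported here and were left out of the lists. Alternatives were a pseudocount of 0.1, no filter, a filter at 5 FPKM, quantile normalization, the letter as a replicate block, only the groups compared, leaving out each library and, added after the data were seen, leaving out the 3 A libraries.

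Same-letter libraries deviated together from their group means in PR1 and parental cells (correlation across rows 0.31, 0.48 and 0.16 for A, B and C) and in PR2 and PR1 (0.53, 0.54 and 0.25), so the letters were taken as pairs there. In PR2 and parental cells C gave 0.014, and they were not, so differences within letters there are a description only. The main fit ignores the letters in all comparisons. Its p-values are those printed unless an alternative, such as the replicate block, is named. Promoter sequences are from RefSeq (GRCh38.p14), matched by symbol for 10 of 10 genes and trimmed to the 250 bases before the start.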

Additional observations from a re-analysis of the deposited data

Results flagged for a closer look

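Genes outside the 10 that the naming rule picked were looked at again where PR2 and PR1 differed by limma, since both were set against the same parental libraries. Among S100 genes these were S100A5 (log2 PR2 minus PR1 −1.81, limma adjusted p = 0.00058) and S100A13 (−0.73, 0.049), and beside them the S100-fused gene TCHH (1.48, 0.00015), which reached 1 FPKM only in PR2, so that this difference was built into its being tested.

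Among annexins they were ANXA3 (1.07, limma adjusted p = 0.028), ANXA6 (1.35, 0.0050) and ANXA1 (−0.73, 0.041), and among intracellular partners TPM1 (1.04, 0.0012), MYH14 (1.26, 0.00068) and MYL9 (3.86, 0.0020).

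Among receptors and plasmin genes they were MCAM (1.92, limma adjusted p = 0.0047), PLAUR (0.76, 0.046), GPC1 (1.48, 0.0027), PLAT (−2.55, 0.025) and SDC1 (−1.65, 8.3e-05). Among other EF-hand genes, of which 4 passed, they included RCN1 (2.23, 1.1e-05), EFHD1 (−0.98, 0.00081) and CETN2 (−0.85, 0.0058), and EFHD1 reached 1 FPKM only in PR1. Among transcription factor genes, of which 7 passed, they included SPDEF (−4.01, 2.3e-05), CEBPA (−1.79, 0.00025), STAT3 (0.83, 0.016) and NFATC2 (0.55, 0.012). NFATC2 reached 1 FPKM only in the PR2 libraries and parental A, so its difference was in part built into its being tested.

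The calls of ANXA3, ANXA1, PLAUR, PLAT, STAT3 and S100A13 between PR2 and PR1 were each lost without at least 1 single library. All of these calls but that of STAT3 were also lost with no filter. Among the 10 genes S100A4 lay above the parental mean in all PR1 libraries and below it in all PR2 libraries, with a PR2 minus PR1 log2 difference of −3.86. It is given as a description, since the gene was chosen with this contrast known.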

How the results depend on the processing

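No log2 difference of the 10 genes that passed the threshold changed sign under the alternatives run. Rows changed numbered 1866 in PR1, 2814 in PR2 and 2395 between PR2 and PR1. They were 1207, 1811 and 1573 with the filter at 5 FPKM, and 3088 in PR1 and 3789 between PR2 and PR1 with the replicate block, where the letters paired. Leaving out 1 library gave 1141 (without PR1 C) to 1895 in PR1, 1805 (without PR2 C) to 2922 in PR2 and 1420 (without PR2 C) to 2227 between them, with fewer samples in each fit. Parental B also moved the count by over 1.5 times, to 1166 in PR1 and 1870 in PR2, as did PR1 B (1592) and PR2 B (1464) between PR2 and PR1. Of the 10 S100 genes, 6 instead of 3 passed with the replicate block in PR1 and 6 instead of 3 between PR2 and PR1. All rows passed in 25.7% and 31.5% of cases there. Without the 3 A libraries 2413 rows changed in PR1, and 5 of the 10 genes passed. Leaving out 1 library gave 2 to 6 in PR1, 4 to 6 in PR2 and 3 in each case between PR2 and PR1. Of the 3 other S100 genes, 2 passed in PR2, but 1 with no filter, with quantile normalization, with only the 2 groups compared and without the 3 A libraries, and 1 to 2 without single libraries. Between PR2 and PR1 2 passed, but 1 under those same alternatives, with the filter at 5 FPKM and without each single library. In each of these the lost call was that of S100A13. The causes were not tested. Absolute depth is unknown, so no counting error is given.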
